A study of Mus musculus with 10 samples.

Results

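The 10 genes described here encode the enzymes of the pentose phosphate pathway, and they were taken by name from the 33585 genes measured in tumor-draining lymph nodes (TDLNs). They were G6pdx, H6pd, Pgls and Pgd of the oxidative arm, Rpia, Rpe, Tkt and Taldo1 of the non-oxidative arm, and 2 linked enzymes, Tigar and Prps1. The study addressed whether interfering with glycolysis after local ablation changes the immune response to the tumor. RNA was sequenced in bulk from nodes of female BALB/c mice bearing 4T1 tumors, a mouse mammary carcinoma line, and the tumors of all 10 mice had been treated by microwave ablation (MWA). The MWA group (n = 5) received PBS by the study's methods, and the MWA+2DG group (n = 5) received 2-deoxy-D-glucose (2DG), a glucose analogue that inhibits the first steps of glycolysis. Nodes were collected on day 15. There was no group without ablation among these libraries, so all values are from ablated mice. The whole node was sequenced, so fewer cells of a type and less RNA per cell cannot be told apart.

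The pentose phosphate pathway starts from glucose 6-phosphate, the same molecule from which glycolysis proceeds. Its oxidative arm yields NADPH, which keeps glutathione and thioredoxin reduced and drives lipid synthesis, and the product of that arm is ribulose 5-phosphate. The non-oxidative arm interconverts sugar phosphates reversibly, so that ribose 5-phosphate for nucleotides can be made from, or returned to, glycolytic intermediates. Lymphocytes that enter division draw on both arms. 2DG is phosphorylated by hexokinase, and the phosphate accumulates because glycolysis cannot use it.

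The promoter sequences of the members are shown first because they are a property of the genes that the choice by name did not use. In the RefSeq promoter windows (GRCm38.p6; 250 bases before to 50 after each start site) all 10 members were matched, in 11 windows. The core of the antioxidant response element, the site bound by NRF2, was searched as TGACNNNGC on both strands. It was present in 12.4% of all 32851 windows and in a window of 2 members, Pgd and G6pdx, which encode the NADPH-producing dehydrogenases of the cytosol. In the following lines the capitals mark the match, and each line reads 5′ to 3′ along the strand of the gene.
G6pdx (chrX:74428918-74428947, minus strand, match on the opposite strand 57 bases before the start site): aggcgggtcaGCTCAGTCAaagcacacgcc
Pgd (chr4:149166060-149166089, minus strand, match on the strand of the gene from base 3 of a further listed transcript start): atttcagagcTGACATTGCactgatcggac

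The GC box GGGCGG, the site of Sp1-type factors, was present on either strand in 35.7% of all windows and in windows of 9 of the 10 members, with H6pd the exception. The E-box CACGTG, which MYC binds among other factors, was present in 7.15% of all windows and in no member's window. The matches describe letters in these windows, and binding was not measured. Pgd had a window at each of 2 listed start sites, with the GC box in one and the antioxidant response element core in the other. GC boxes of the 3 non-oxidative genes whose levels are described most closely are shown, again with the match in capitals.
Rpia (chr6:70792165-70792194, minus strand): gagttgggggtgGGGCGGccggagaggctg
Taldo1 (chr7:141392099-141392128, plus strand): ctccaagtacatGGGCGGggctcgtcgtca
Tkt (chr14:30549121-30549150, plus strand): cccgccccccatGGGCGGgtcctaaggagt

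Expression was deposited as FPKM, a read level divided by transcript length and by the size of the library, so levels are per length. Comparisons between genes also depend on how reads of overlapping or copied genes were assigned, which no source used here states. Read depth cannot be read from FPKM. The libraries had 24327 to 25226 genes above 0, and a summed FPKM from 312143 to 359984, the highest in MWA replicate 5. Markers of B cells (summed FPKM from 1274 to 1639) and T cells (332 to 509) were abundant in every library, while 6 markers of mammary and tumor epithelium summed to 2.28 to 13.1. Replicates 1 and 2 of both groups lay apart from replicates 3 to 5 on the first principal component, which held 36.4% of the variance. The labels do not name these replicate sets, which were read from the values of these same libraries in an earlier analysis. Each set holds as many MWA as MWA+2DG libraries.

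All 10 enzymes were transcribed in every library, and none was listed at 0 in any of them. Taldo1, transaldolase of the non-oxidative arm, had by far the highest level at 78.6 ± 8.46 FPKM (SD, n = 10), above 95.9% of the genes tested. Tkt, transketolase of the same arm, followed at 28.6 ± 3.15 FPKM (SD, n = 10). Below them came Prps1 (22.5 FPKM), Pgd (21.0), Pgls (17.5), G6pdx (16.0), Rpe (14.0), H6pd (9.31), Rpia (9.06) and Tigar (4.30), as means over the 10 libraries. Thus the reversible arm held both the most and nearly the least abundant of the enzymes.

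Neighbours in this order were compared within each library by a two-sided exact paired permutation test, adjusted over the 9 neighbouring pairs. The order itself came from the same 10 libraries. The test measures the spread between libraries and cannot account for read assignment, which may differ between genes. Taldo1 exceeded Tkt in 10 of 10 libraries (mean difference 1.43 on the log2 scale, exact adjusted p = 0.00439), and Tkt exceeded Prps1 in 10 of 10 (0.33, exact adjusted p = 0.00439). The same count and exact adjusted p = 0.00439 held for Rpe above H6pd (0.54) and Rpia above Tigar (0.92). Pgd exceeded Pgls in 9 of 10 libraries (exact adjusted p = 0.00879), and G6pdx exceeded Rpe in 9 of 10 (exact adjusted p = 0.00703). In 3 neighbouring pairs the order was not separated beyond the spread. Prps1 was above Pgd in 7 libraries (exact adjusted p = 0.0901), Pgls above G6pdx in 8 (exact adjusted p = 0.0879) and H6pd above Rpia in 5 (exact adjusted p = 0.516).

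**Figure D1:**
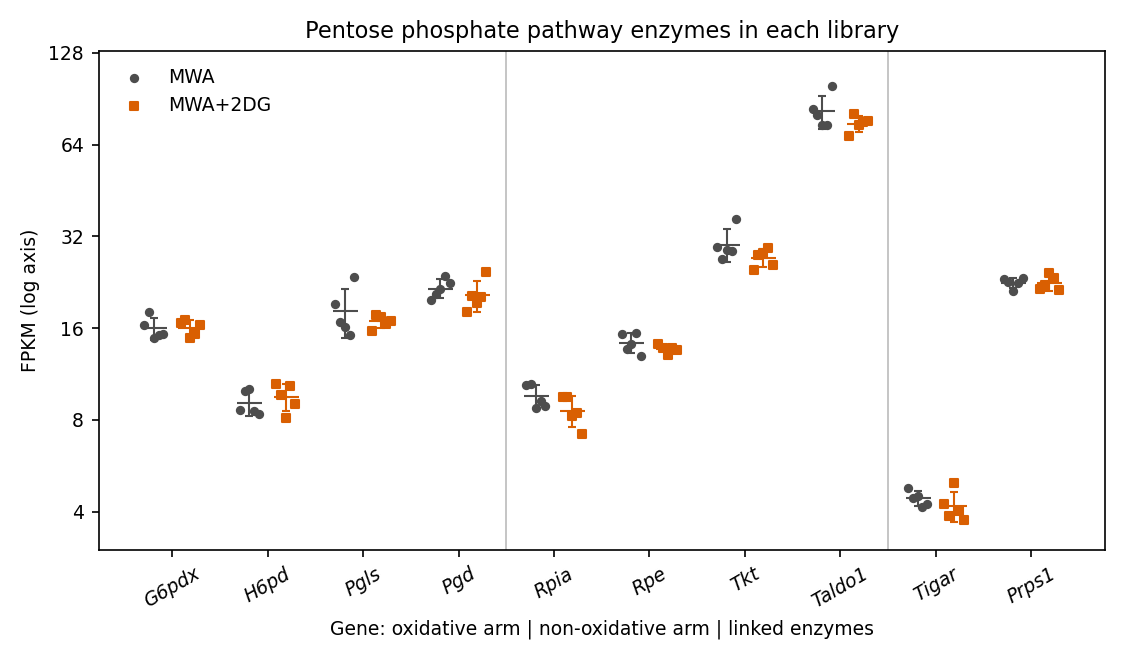
FPKM (log axis) of each enzyme in each library, with MWA as gray circles and MWA+2DG as orange squares in replicate order from left to right, and the mean and SD (n = 5) as bars. The groups of every gene overlap, Taldo1 lies highest at 68.3 to 99.4 FPKM, and MWA replicate 5 is the uppermost point of Pgls, Tkt and Taldo1.

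None of the 10 enzymes passed a call rule applied across all genes in MWA+2DG against MWA. Across the 13334 genes tested with limma, 0 (0%) passed an adjusted p of 0.05, the smallest being 0.995, and 567 (4.25%) had an unadjusted P below 0.05. By the study's rule (unadjusted P below 0.05 and a log2 fold change beyond 0.25) 376 genes (2.82%) were called, 127 higher and 249 (1.87%) lower with 2DG. The members counted 0 under each of these rules. The groups did not overlap in 107 genes (0.802%) and in 0 members. The members' log2 fold changes ran from -0.14 to 0.06 on the log2(FPKM + 1) scale, with 8 of 10 below 0 against 47.4% of all genes tested. The median of all genes was 0.01, and 24.9% of genes had a larger absolute change than Rpia, the member furthest from 0.

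In the oxidative arm 2 of the 4 enzymes had log2 fold changes below 0, and the 95% interval of all 4 included 0. G6pdx, glucose 6-phosphate dehydrogenase, the committed and rate-limiting step, had 16.4, 18.0, 14.8, 15.2 and 15.4 FPKM in MWA replicates 1 to 5 and 16.7, 17.0, 14.9, 15.3 and 16.4 FPKM in MWA+2DG replicates 1 to 5. Every MWA+2DG value lay inside the MWA range. The means were 16.0 ± 1.30 and 16.0 ± 0.917 FPKM (SD, n = 5), which differed by 0.01 ± 0.07 on the log2 scale (SE, 95% interval -0.15 to 0.17; limma adjusted p = 0.999). The gene lies across 19712 bases from Ikbkg on the opposite strand (6.78 FPKM), and no source used here says whether strand was used when reads were assigned.

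Pgd, 6-phosphogluconate dehydrogenase, carries out the other NADPH-producing step. It had 19.7, 20.6, 21.4, 23.7 and 22.4 FPKM with MWA and 18.1, 20.4, 19.3, 20.3 and 24.4 FPKM with MWA+2DG. The lowest and the highest of all 10 libraries were both MWA+2DG, so the groups overlapped over the whole MWA range. The log2 fold change was -0.08 ± 0.09 (SE, 95% interval -0.27 to 0.12). The ratio of Pgd to G6pdx was 1.36 ± 0.179 with MWA and 1.28 ± 0.150 with MWA+2DG (SD, n = 5).

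Pgls, 6-phosphogluconolactonase, hydrolyses the lactone between these dehydrogenases. It had 19.2, 16.8, 16.1, 15.2 and 23.5 FPKM with MWA and 15.6, 17.7, 17.4, 16.5 and 16.9 FPKM with MWA+2DG. MWA replicate 5 alone stood above 20 FPKM, and the other libraries of both groups were mixed. The log2 fold change was -0.09 ± 0.11 (SE, 95% interval -0.33 to 0.15) with that library and 0.00 without it. Pgls shares 3445 bases with Fam129c on the same strand (14.2 FPKM), so reads could be divided between them.

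H6pd, the bifunctional dehydrogenase and lactonase that supplies NADPH inside the endoplasmic reticulum, had the highest log2 fold change of the members. Its values were 8.60, 9.94, 10.1, 8.53 and 8.34 FPKM with MWA and 10.5, 9.66, 8.11, 10.4 and 9.02 FPKM with MWA+2DG. MWA+2DG libraries held the 2 highest values and the lowest, and the log2 fold change was 0.06 ± 0.09 (SE, 95% interval -0.13 to 0.25). Relative to its cytosolic counterpart, the ratio of H6pd to G6pdx was 0.572 ± 0.0626 and 0.594 ± 0.0577 (SD, n = 5) in MWA and MWA+2DG.

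In the non-oxidative arm all 4 enzymes had log2 fold changes below 0, and the 95% interval of each included 0. Rpia, ribose 5-phosphate isomerase, which makes ribose 5-phosphate from ribulose 5-phosphate, had 10.4, 10.5, 8.77, 9.24 and 8.85 FPKM with MWA and 9.51, 9.53, 8.26, 8.42 and 7.19 FPKM with MWA+2DG. All 5 MWA+2DG values were under the MWA mean and 3 were under every MWA value. The means were 9.54 ± 0.829 and 8.58 ± 0.977 FPKM (SD, n = 5), and the log2 fold change was -0.14 ± 0.09 (SE, 95% interval -0.34 to 0.06; limma adjusted p = 0.995; two-sided exact permutation p = 0.127). The log2 fold change became -0.09 when the lowest library (MWA+2DG replicate 5) was left out. It was also -0.09 with each library rescaled to the same summed FPKM, which moved the median of all genes tested from 0.01 to 0.07. The smallest p that 252 regroupings allow is 0.00794.

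Rpia was also the member that varied most with the replicate set. Its values in replicates 1 and 2 (9.51 to 10.5 FPKM) were all above those in replicates 3 to 5 (7.19 to 9.24 FPKM), a log2 difference of -0.22 ± 0.06 (SE; limma adjusted p = 0.0865). Within each set the MWA+2DG libraries were all below the MWA libraries. With labels exchanged only within sets the exact permutation p was 0.0167, the smallest that 120 regroupings can give, and with the set as a term in limma the unadjusted P was 0.0409 and the adjusted p 0.842. Separation in 1 direction within both sets occurred in 327 genes (2.45%), of which 186 (1.39%) were lower with 2DG, and Rpia was the only member among them. This count was chosen after Rpia's values had been seen.

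Between the sets, 488 genes (3.66%) passed an adjusted p of 0.05 and 0 members did. Because the sets were read from these values, small p-values between them are partly built in and are given as description only. The p of Rpia with labels exchanged within sets rests on the same split. G6pdx had the next smallest P after Rpia, with 17.0 ± 0.722 FPKM (SD, n = 4) in replicates 1 and 2 and 15.3 ± 0.577 FPKM (SD, n = 6) in replicates 3 to 5 (limma adjusted p = 0.2). Pgd ran the other way, at 19.7 ± 1.15 and 21.9 ± 1.94 FPKM (SD, n = 4 and 6; limma adjusted p = 0.301).

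**Figure D2:**
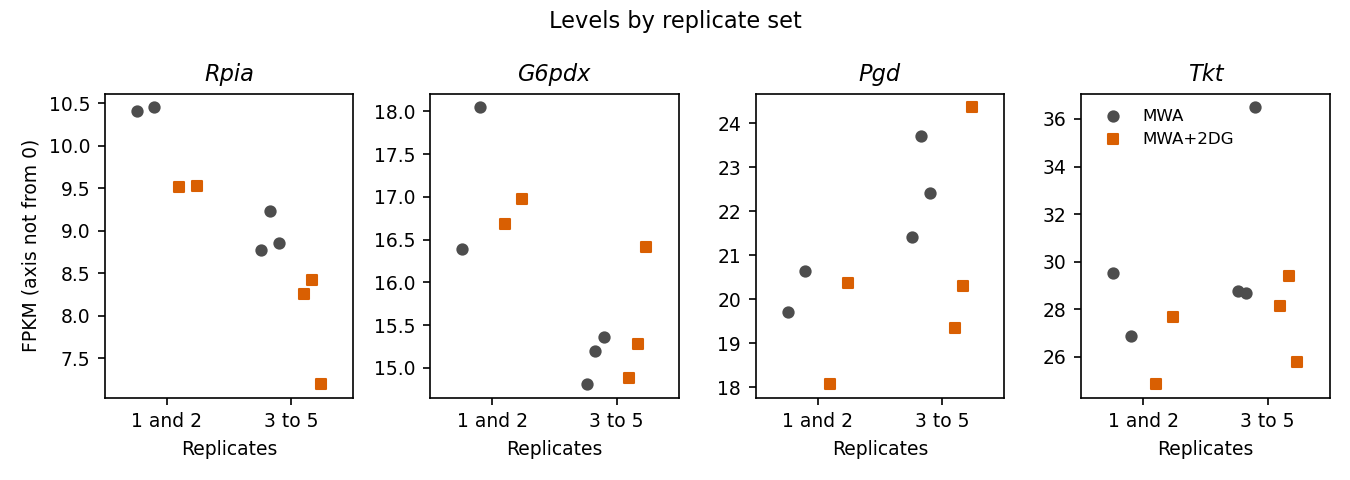
FPKM of Rpia, G6pdx, Pgd and Tkt (vertical axes do not start at 0), split into replicates 1 and 2 and replicates 3 to 5, with 1 point per library, MWA as gray circles and MWA+2DG as orange squares. For Rpia the orange points lie below the gray ones in both sets, while for the other genes the groups overlap in at least 1 set.

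Tkt and Taldo1, which together move carbon between pentose phosphates and glycolytic intermediates, are described together. Tkt had 29.5, 26.9, 28.8, 28.7 and 36.5 FPKM with MWA and 24.9, 27.7, 28.1, 29.4 and 25.8 FPKM with MWA+2DG. Taldo1 had 83.8, 80.2, 74.1, 73.9 and 99.4 FPKM with MWA and 68.3, 80.4, 74.0, 75.9 and 76.5 FPKM with MWA+2DG. In both genes MWA replicate 5 was the highest library and MWA+2DG replicate 1 the lowest, and the MWA+2DG libraries below every MWA library numbered 2 for Tkt and 1 for Taldo1.

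The log2 fold change was -0.14 ± 0.09 for Tkt (SE, 95% interval -0.33 to 0.06; exact permutation p = 0.143) and -0.13 ± 0.09 for Taldo1 (SE, 95% interval -0.32 to 0.07; exact permutation p = 0.206). Without MWA replicate 5 these values were -0.07 and -0.06. That library was the highest of the 10 in 3 members and the lowest in 1. Of all genes tested, 16.6% were highest and 29.1% were lowest in this library. It also held the highest summed FPKM of glycolytic enzymes (1027, against 723 to 815 in the MWA+2DG libraries), plasma cell markers (896) and macrophage markers (294). The part of these in the enzymes' values was not tested.

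Rpe, ribulose 5-phosphate epimerase, which makes the xylulose 5-phosphate used by transketolase, was steady. It ranged from 13.0 to 15.4 FPKM with MWA and from 13.0 to 14.2 FPKM with MWA+2DG, with a log2 fold change of -0.06 ± 0.07 (SE, 95% interval -0.21 to 0.09). All of the MWA+2DG values lay within the MWA range. The gene shares 558 bases with Kansl1l on the opposite strand.

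Summed over its 4 enzymes, the oxidative arm had 64.8 ± 2.95 FPKM with MWA and 62.9 ± 2.82 FPKM with MWA+2DG (SD, n = 5). The non-oxidative arm had 136 ± 13.1 and 124 ± 5.40 FPKM (SD, n = 5), with the highest value, 158 FPKM, in MWA replicate 5. The ratio of the non-oxidative to the oxidative sum was 2.18, 2.01, 2.02, 2.03 and 2.27 in MWA replicates 1 to 5 and 1.92, 2.03, 2.07, 2.04 and 1.84 in MWA+2DG replicates 1 to 5. The ratios overlapped between the groups, and the group medians were both 2.03. Taldo1 alone made up 34.1% to 39.0% of the summed FPKM of the 10 enzymes with MWA and 33.6% to 36.2% with MWA+2DG.

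The median log2 fold change was -0.03 over the oxidative arm and -0.13 over the non-oxidative arm, beside 0.01 over all genes tested. Rescaling each library to the same summed FPKM moved the medians to 0.03 and -0.07 while the median of all genes became 0.07. Without MWA replicate 5 they were 0.00 and -0.08. No test was made of the difference between the arms.

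**Figure D3:**
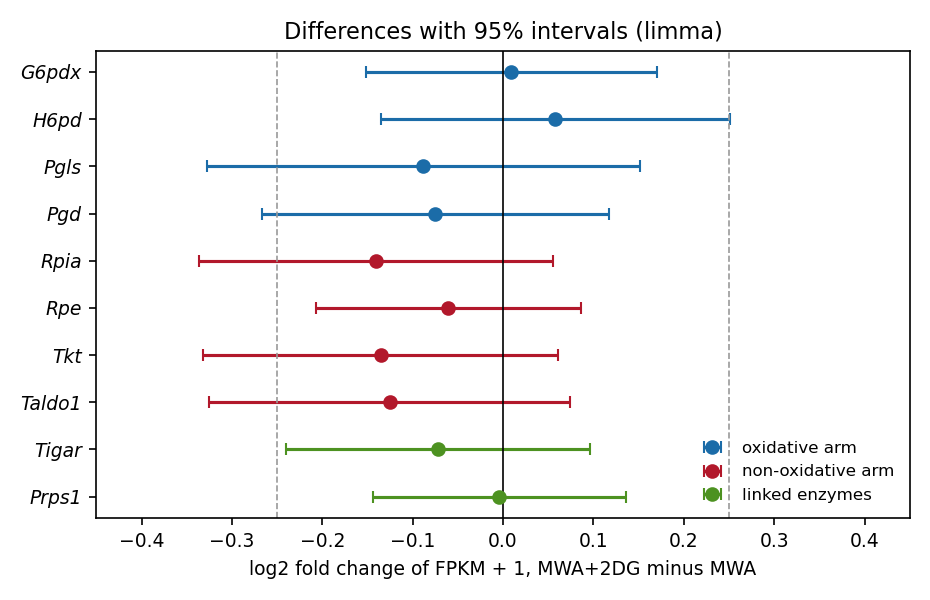
Log2 fold change of FPKM + 1 (MWA+2DG minus MWA) for each enzyme, with its 95% interval from limma without covariates and colored by arm, and dashed lines at -0.25 and 0.25. All 10 intervals cross 0, the 4 non-oxidative estimates lie between -0.14 and -0.06, and the intervals run from -0.34 (Rpia) to 0.25 (H6pd).

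The intervals, from the fit without covariates, limit the size of change that these samples leave possible. Over all members the lowest lower bound was -0.34 and the highest upper bound was 0.25 on the log2(FPKM + 1) scale. With the replicate set as a term the log2 fold change of Rpia was -0.14 ± 0.06 (SE; limma unadjusted P = 0.0409, adjusted p = 0.842). For Tkt the interval, expressed on FPKM + 1, ran from 20.6% lower to 4.33% higher, and for Taldo1 from 20.2% lower to 5.29% higher. The labels do not say that the libraries of a group came from separate cages or experiments, so the p-values measure the spread between these 10 samples.

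Tigar, the fructose 2,6-bisphosphatase that slows glycolysis and so leaves more glucose 6-phosphate for the pathway, had the lowest level. It ranged from 4.13 to 4.79 FPKM with MWA and from 3.76 to 4.96 FPKM with MWA+2DG, where 3 libraries lay below every MWA library and 1 above. Its log2 fold change was -0.07 ± 0.08 (SE, 95% interval -0.24 to 0.10). Prps1, phosphoribosyl pyrophosphate synthetase, turns ribose 5-phosphate into PRPP, the starting point of nucleotide synthesis. It was the steadiest member, with a coefficient of variation of 4.56% over the 10 libraries, and had 22.6 ± 0.892 and 22.5 ± 1.26 FPKM (SD, n = 5) in MWA and MWA+2DG. The log2 fold change was 0.00 ± 0.06 (SE, 95% interval -0.14 to 0.14). Prps1 supplied 62.8% ± 4.29 and 61.8% ± 3.23 (SD, n = 5) of the summed FPKM of Prps1 and its paralog Prps2.

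Genes of the surrounding metabolism were read from lists of the pathway's neighbours. Of 14 paralogs and side-branch genes 9 passed the filter on low values, 4 had log2 fold changes below 0, and none passed the study's rule (median 0.00). The one of smallest P was Dera, which cleaves deoxyribose 5-phosphate, at 4.54 ± 0.645 FPKM with MWA and 3.87 ± 0.308 FPKM with MWA+2DG (SD, n = 5; limma adjusted p = 0.995). The paralogs G6pd2, Tktl1, Tktl2 and Prps1l1 were below the filter, with Tktl1 the highest at 0.359 FPKM on average with MWA. Of 8 genes of glucose uptake and entry 6 were tested, 2 were below 0 and 0 passed the rule (median 0.09, but -0.04 without MWA+2DG replicate 5), and the glucose transporter Slc2a3 was at 4.63 ± 0.856 and 5.60 ± 0.915 FPKM (SD, n = 5).

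Glycolytic enzymes below fructose 6-phosphate had a median of -0.12, with 12 of 14 below 0 and 1 past the study's rule in the lower direction. The median was -0.07 without MWA replicate 5 and -0.08 with rescaled libraries, where that of all genes tested was 0.07. The gene past the rule was Tpi1, triosephosphate isomerase, which interconverts the triose phosphates, 1 of which Tkt and Taldo1 also use. It had 58.8, 55.3, 59.9, 65.3 and 96.2 FPKM with MWA and 44.3, 53.5, 47.8, 53.5 and 46.6 FPKM with MWA+2DG, so the groups did not overlap. Its log2 fold change was -0.42 ± 0.14 (SE; exact permutation p = 0.00794, the smallest possible; limma adjusted p = 0.995). As in Tkt and Taldo1, MWA replicate 5 was the highest library, and without it the log2 fold change was -0.28, still past the rule. In replicates 1 and 2 alone the call ended, with 0 glycolytic genes past the rule.

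Other sources of NADPH, such as isocitrate dehydrogenases and malic enzymes, had a median of -0.02, with 5 of 7 below 0 and 0 past the rule. The median turned to 0.04 with rescaled libraries, where that of all genes tested was 0.07, and to 0.06 without MWA+2DG replicate 5. The malic enzyme gene Me1, the one of smallest P, was at 0.756 to 1.08 FPKM with MWA and 0.875 to 4.13 FPKM with MWA+2DG. NADPH users and redox enzymes had a median of -0.12, with 12 of 13 tested genes below 0 and 0 past the rule. Those below 0 numbered 7 with rescaled libraries and 8 without MWA replicate 1 or without MWA+2DG replicate 5, and the median was -0.05 without MWA replicate 5. Among them Prdx1, a peroxiredoxin, was at 87.0 ± 9.15 and 75.7 ± 3.50 FPKM (SD, n = 5), and its log2 fold change, -0.19, was inside the fold threshold. The NADPH oxidase of phagocytes, which consumes NADPH to make superoxide, had a median of -0.03 over 6 genes (0.03 with rescaled libraries), with 5 below 0 and 0 past the rule.

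Nucleotide synthesis, which uses the ribose 5-phosphate made by Rpia and activated by Prps1, was represented by 12 purine and 9 pyrimidine genes. Of the purine genes 9 were below 0 and 0 passed the rule (median -0.05). With rescaled libraries 5 of 12 were below 0 and the median was 0.01, beside 0.07 over all genes tested. Paics, a bifunctional enzyme of the purine ring, was at 44.3 ± 2.76 FPKM with MWA and 39.4 ± 2.19 FPKM with MWA+2DG (SD, n = 5), and its groups did not overlap (log2 fold change -0.16; exact permutation p = 0.00794, the smallest possible). That p is unadjusted, and no gene tested, Paics included, had a limma adjusted p below 0.995. Of the pyrimidine and deoxynucleotide genes 6 were below 0 (median -0.12, and 0.00 in replicates 1 and 2 alone) and 1 passed the rule. This was Rrm1, the large subunit of ribonucleotide reductase, with a log2 fold change of -0.25 ± 0.10 (SE; limma adjusted p = 0.995) from 12.7 ± 0.635 to 10.6 ± 1.69 FPKM (SD, n = 5). This call ended without MWA replicate 2 (-0.24) or 5 (-0.23), or without MWA+2DG replicate 3 (-0.21) or 5 (-0.18), and also with rescaled libraries (-0.20) and in replicates 1 and 2 alone (-0.10). Pyrimidine genes past the rule numbered 3 in replicates 3 to 5 alone, without MWA replicate 1 and without MWA+2DG replicate 4.

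Markers of dividing cells were lower with 2DG beside these values. All 17 had log2 fold changes below 0 (median -0.31), and 11 passed the study's rule against 1.87% of all genes. They included the mitotic kinase Cdk1, at 9.14 ± 0.712 and 6.79 ± 0.847 FPKM (SD, n = 5; log2 fold change -0.38 ± 0.09, SE), and the mitotic cyclin Ccnb2 (-0.44). The others were Ccna2, Ccnb1, Bub1, Aurka, Birc5, Kif2c, Tpx2, Ube2c and Cdc20, from -0.35 to -0.25. Their summed FPKM ran from 256 to 332 with MWA and from 174 to 281 with MWA+2DG. The lowest sum was in MWA+2DG replicate 5. That library was the lowest in 2 members, Rpia and Tigar, and in 23.9% of all genes tested (29.1% in MWA replicate 5), and the highest in 1 member, Pgd. The number of dividing cell markers past the rule was 3 without MWA+2DG replicate 5, 5 without MWA replicate 4 and 7 without MWA+2DG replicate 3. The number was 4 with rescaled libraries and 3 in replicates 1 and 2 alone. No marker of this list passed an adjusted p of 0.05, and the part of dividing cells in the pathway's values was not tested.

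Markers of other cell types were read in the same way, and no marker of any list passed an adjusted p of 0.05. All 10 T cell markers had log2 fold changes above 0 (median 0.18) and Cd8a passed the rule, while B cell markers had a median of -0.12 with 8 of 8 below 0 and 0 past the rule. In replicates 1 and 2 alone 2 T cell markers were below 0 (median 0.10), as were 2 without MWA replicate 4 (median 0.12). B cell markers below 0 numbered 6 with quantile normalization (median -0.04), with rescaled libraries (-0.06) and in replicates 3 to 5 alone (-0.11). Plasma cell markers had a median of -0.29, with 7 of 8 below 0 and Xbp1 and Mzb1 past the rule, and macrophage markers -0.12, with 8 of 9 tested below 0 and Csf1r past it. Without MWA replicate 5, 4 of the 9 macrophage markers were below 0 (median 0.00), and the plasma cell median was 0.10 in replicates 1 and 2 alone. Of 9 neutrophil markers 3 were tested, with a median of -1.43, S100a8 and S100a9 past the rule, and the highest sum (95.8) in MWA replicate 1. The calls of Cd8a, Xbp1, Mzb1 and Csf1r ended without any 1 of MWA replicate 3, MWA replicate 5 or MWA+2DG replicate 3, among other libraries (0.26, -0.31, -0.32 and -0.23 without MWA replicate 5), and that of S100a8 without MWA+2DG replicate 2 (-1.13). Other settings gave more calls. Of the T cell markers 5 passed the rule without MWA replicate 1 or without MWA+2DG replicate 5, and 4 with rescaled libraries. Of the plasma cell markers 4 passed it without MWA replicate 1 or 2. Red blood cell, adipocyte, liver, stromal and epithelial markers had 0 genes past the rule. The 4 tested adipocyte markers were all above 0 (median 0.89, and 0.49 without MWA+2DG replicate 5). The summed FPKM of the adipocyte list was 4.53 to 18.1 with MWA and 5.06 to 93.9 with MWA+2DG, and MWA+2DG replicate 5 held both this maximum and that of the epithelial list (13.1). The summed FPKM of the dividing cell markers was also lowest in this library, as were 23.9% of all genes tested, Rpia and Tigar among them. The share lowest in MWA replicate 5 was larger, at 29.1%. The part of these cell types in the enzymes' levels was not tested.

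**Figure D4:**
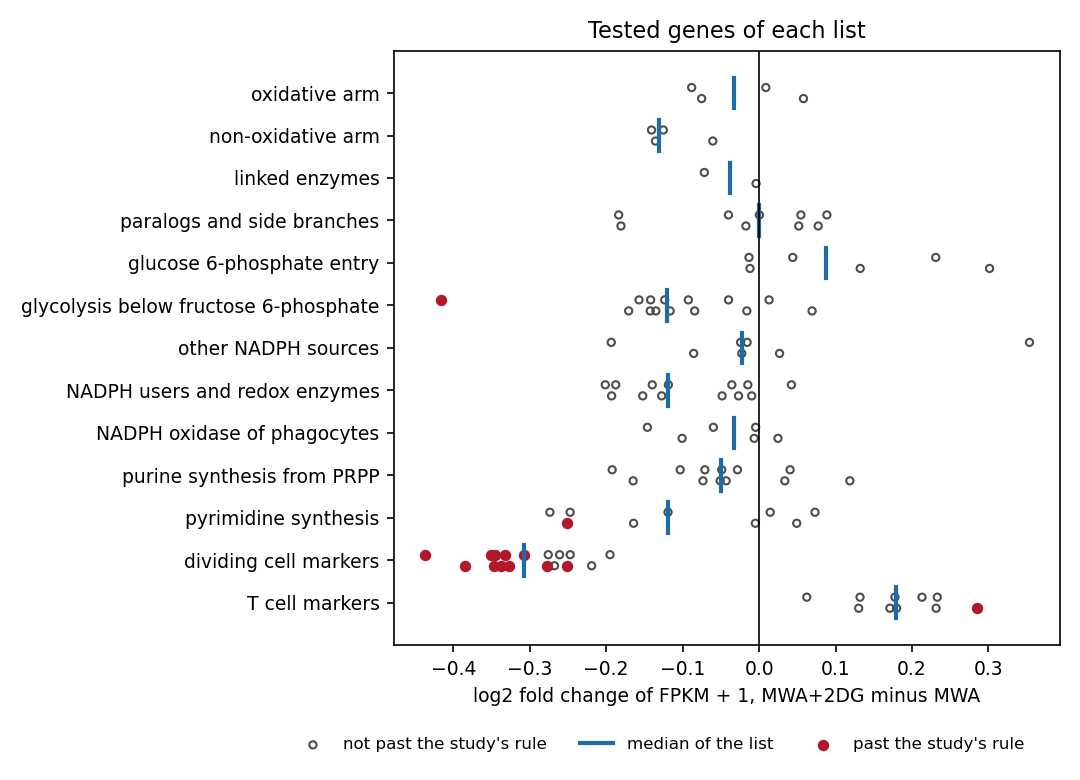
Log2 fold change of FPKM + 1 (MWA+2DG minus MWA) of each tested gene in the pathway, its neighbouring lists and the markers of dividing cells and T cells, with list medians as blue lines and genes past the study's rule as filled red points. The enzymes of both arms lie between -0.14 and 0.06, the dividing cell markers have 11 red points and a median of -0.31, and the T cell markers have a median of 0.18.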

How the data were processed

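Bulk RNA-seq was made from poly(A) RNA of 10 TDLNs, 5 per group, with libraries that used dUTP and molecular identifiers. The authors mapped reads with HISAT2 and computed gene values with StringTie and ballgown, and the deposited values are FPKM, 1 table per library. The submitters' processing notes name cutadapt 1.9, HISAT2 2.0.4, UMI-tools, StringTie 1.3.4d and the build mm9, so no coordinates were taken for the measured genes, and promoter coordinates and gene overlaps come from GRCm38 references. Symbols matched 33541 of 33643 identifiers, and values of 57 shared symbols were summed. The test was limma 3.58.1 (R 4.3.3) on log2(FPKM + 1), without covariates, over the 13334 genes whose mean reached 1 FPKM, with Benjamini-Hochberg adjustment over all of them. A fold change on this scale is smaller than the true one for low genes. Two-sided exact permutation tests of single values were run in Python 3.11.15. The fit was tested on simulated data. No 2 libraries held more than a share of 0.000148 of equal values. FPKM hold no counts, so depth and counting error are unknown. All 10 members are named, and of each list the genes past the study's rule or else that of smallest P, except 1 that is not reported here. The members and lists were chosen with earlier results of these data known. Alternatives were other pseudocounts, filters, scalings and tests, the replicate number or set as a term, and leaving out each library.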

Additional observations from a re-analysis of the deposited data

Results flagged for a closer look

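Tkt in MWA replicate 5 stood far from the other MWA libraries, at 36.5 FPKM against 26.9 to 29.5 FPKM in the other 4, with a gap of 0.726 of the group's range where Dixon's limit for 5 samples is 0.71. It was the only one found among 26 groups of 5 values examined (the 10 enzymes, the sums of both arms and their ratio in each group), and chance marks about 1 group in 20.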

How the results depend on the processing

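No enzyme passed the study's rule or an adjusted p of 0.05 under any alternative, and the smallest adjusted p of a member was 0.768 (Rpia and Tigar). Members below 0 numbered 7 to 9. Rpia, Rpe, Tkt, Taldo1, Pgd, Tigar and H6pd kept their direction throughout, but their sizes moved. With rescaling they were -0.089, -0.00083, -0.075, -0.062, -0.015, -0.023 and 0.12. The median of all genes tested moved with rescaling from 0.0074 to 0.068. Leaving out single libraries gave -0.18 to -0.086 for Rpia, -0.092 to -0.035 for Rpe, -0.17 to -0.066 for Tkt, -0.16 to -0.056 for Taldo1, -0.14 to -0.034 for Pgd, -0.12 to -0.043 for Tigar and 0.025 to 0.11 for H6pd. Tigar was not tested with a filter of 5 FPKM. The log2 fold change of G6pdx was -0.030 in replicates 1 and 2 alone and ran from -0.016 to 0.052 when single libraries were left out. That of Prps1 was 0.059 with rescaling, 0.011 with quantile normalization and 0.037 in replicates 3 to 5 alone, and ran from -0.029 to 0.015 when single libraries were left out. That of Pgls ran from -0.14 to 0.0048, the latter without MWA replicate 5. The cause of these turns was not tested. The arm medians became 0.029 (oxidative) and -0.069 (non-oxidative) with rescaling, and leaving out single libraries gave -0.046 to 0.00069 and -0.15 to -0.079. Rpia had an unadjusted P of 0.0433 with median ratio scaling and 0.0409 with the set as a term.

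Of all genes, 127 were higher and 249 lower by the study's rule. These numbers were 69 and 161 with a filter of 5 FPKM, 328 and 159 with rescaling, 67 and 143 by the exact Wilcoxon rank-sum test, and 39 and 140 with the threshold on the natural log. Higher genes were 371 in replicates 1 and 2 alone and 218 with no fold threshold, and lower genes 386 in replicates 3 to 5 alone. Leaving out single libraries gave 80 to 222 higher and 177 to 315 lower, and 0 to 1 by adjusted p (1 without MWA replicate 2). Samples sharing a replicate number had correlations of deviations of 0.331, 0.501, 0.110, 0.0334 and 0.151, so the numbers were not taken as pairs, and not every sample correlated best with its own number. With the replicate number as a block 164 genes were higher and 285 lower, 0 passed an adjusted p, and 0 members were called.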

Other observations

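Ctps2, 1 of the CTP synthetases of pyrimidine synthesis, was chosen after its values had been seen. It was at 9.97 ± 0.391 FPKM (SD, n = 4) in replicates 1 and 2 of both groups and at 2.02 ± 0.391 FPKM (SD, n = 6) in replicates 3 to 5, ranging from 9.63 to 10.5 and from 1.49 to 2.59 (limma adjusted p = 2.92e-06). Among 76 metabolic list genes outside the pathway it was the only one to pass an adjusted p of 0.05 between the replicate sets. The sets themselves were read from the values of these libraries, so this p is description only. Rgn, an alternative lactonase also chosen after its values had been seen and abundant in liver, was listed at 0 in 3 of the 4 libraries of replicates 1 and 2 (0.08 in the other) and at 0.67 to 2.23 FPKM in replicates 3 to 5. The summed FPKM of 8 liver markers was highest in MWA replicate 4, at 194.

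Gapdh, a glycolytic enzyme that is abundant in most cells, was listed at only 8.36 FPKM with MWA and 8.11 FPKM with MWA+2DG on average, below Aldoa (155 and 146 FPKM) and Ldha (178 and 160 FPKM). It has many processed copies in the mouse genome, and no source used here says how their reads were assigned, so its level and that of the glycolytic sum are uncertain.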
